A study of Mus musculus with 18 samples.

Results

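The genes described here encode the proteins that prepare peptides and show them on the cell surface, the major histocompatibility complex (MHC) molecules and their helpers. They were taken as all probes whose gene symbol in the platform annotation begins with H2-, the prefix of the mouse MHC, together with 13 further genes of the pathway: B2m, Tap1, Tap2, Tapbp, Psmb8, Psmb9, Psmb10, Psme1, Psme2, Ciita, Cd74, Nlrc5 and Erap1. This gave 48 genes of the 16593 with a symbol on the array, 35 of them with the H2- prefix, read by 63 of its 25697 probes. By class they were 24 genes of class I chains, 11 of the class I path, 5 of class II chains, 5 of class II peptide loading, 2 of the class II path (Cd74 and Ciita) and 1 other gene, H2-Ke6. RNA came from the submandibular gland (a salivary gland), the stomach and the duodenum of female C57BL/6 mice aged 2 months, either wild type or Car6-/-, which lack the gene of the secreted carbonic anhydrase VI. Each of the 6 combinations of tissue and genotype was measured on 3 Illumina bead arrays, and the series text names 3 mice of each genotype. How the Car6 allele was made, and whether the 3 tissues of a number came from the same mouse, is not stated in the labels.

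MHC class I molecules present peptides made in the cell, and nearly every nucleated cell carries them. The immunoproteasome cuts proteins, the Tap1 and Tap2 transporter carries the peptides into the endoplasmic reticulum, and tapasin helps to load them on a heavy chain paired with the B2m light chain. MHC class II molecules present peptides taken up from outside, mostly on dendritic cells, B cells and macrophages, and also on the epithelium of the small intestine, where interferon gamma induces them through the transactivator Ciita. Nlrc5 is the corresponding transactivator of class I genes.

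The promoters of 5 members are shown because the DNA letters that the MHC transactivators and interferon factors are known to work through can be read in them. The windows are those of RefSeq on build GRCm38.p6 and run from 250 bases before to 50 bases after the annotated start, 5′ to 3′ on the gene's strand. Capitals mark matches on either strand to the Y box CTGATTGG, the core of the X box CAACNGATG, the core of the kappaB-type enhancer GGGATTCCC and the core of the interferon response element GAAANNGAA.
H2-K1: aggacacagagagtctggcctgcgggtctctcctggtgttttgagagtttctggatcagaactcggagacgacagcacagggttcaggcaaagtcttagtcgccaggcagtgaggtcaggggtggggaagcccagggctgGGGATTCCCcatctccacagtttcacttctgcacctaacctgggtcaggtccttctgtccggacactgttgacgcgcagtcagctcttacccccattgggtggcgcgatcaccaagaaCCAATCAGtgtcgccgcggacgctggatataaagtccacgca
B2m: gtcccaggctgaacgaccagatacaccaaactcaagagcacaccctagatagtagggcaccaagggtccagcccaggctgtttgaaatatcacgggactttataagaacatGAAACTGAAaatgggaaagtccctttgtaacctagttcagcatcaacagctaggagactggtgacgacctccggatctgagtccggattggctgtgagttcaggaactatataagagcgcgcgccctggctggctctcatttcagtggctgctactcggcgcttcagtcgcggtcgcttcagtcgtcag
Tap1: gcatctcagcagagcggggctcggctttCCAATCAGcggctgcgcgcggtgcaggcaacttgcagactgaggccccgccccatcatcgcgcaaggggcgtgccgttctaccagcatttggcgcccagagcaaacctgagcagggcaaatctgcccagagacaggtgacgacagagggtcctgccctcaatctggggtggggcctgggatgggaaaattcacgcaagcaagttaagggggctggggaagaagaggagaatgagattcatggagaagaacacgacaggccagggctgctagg
H2-Aa: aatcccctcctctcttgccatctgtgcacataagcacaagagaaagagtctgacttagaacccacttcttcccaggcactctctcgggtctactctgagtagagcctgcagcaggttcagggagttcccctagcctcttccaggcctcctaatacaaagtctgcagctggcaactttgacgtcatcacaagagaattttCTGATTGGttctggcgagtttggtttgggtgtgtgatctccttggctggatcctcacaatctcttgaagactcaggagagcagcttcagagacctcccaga
H2-Eb1: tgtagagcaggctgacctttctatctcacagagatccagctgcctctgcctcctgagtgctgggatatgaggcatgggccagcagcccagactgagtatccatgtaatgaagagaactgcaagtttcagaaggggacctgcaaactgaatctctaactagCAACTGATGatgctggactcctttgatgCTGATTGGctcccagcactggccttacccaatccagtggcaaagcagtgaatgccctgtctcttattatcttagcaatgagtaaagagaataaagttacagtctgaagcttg

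The H2-K1 window, for a class I heavy chain, lies on the minus strand at chr17:34000298-34000597 and holds the enhancer and a Y box in reverse. The window of B2m, the shared light chain, is on the plus strand at chr2:122147437-122147736 and holds the interferon element. The Tap1 window is on the plus strand at chr17:34187306-34187605 and has a Y box in reverse. A Y box was also found in the window of Psmb9, which is not printed. H2-Aa, a class II alpha chain, has a Y box on the minus strand at chr17:34287774-34288073. H2-Eb1, a class II beta chain, has the X box followed by the Y box on the plus strand at chr17:34305617-34305916. Of the 48 member genes, 36 had a window. A Y box was found for 18 of these genes and in 4.1% of all 32851 windows, among them 8 H2-M genes. The X box core was found for 2 genes, H2-Eb1 and H2-Eb2, and in 0.566% of windows. The enhancer core was found for 3 genes, H2-K1, H2-D1 and H2-Q7, and in 0.353% of windows, and the interferon element core for 4 genes, B2m, Erap1, H2-T23 and Psme1, and in 8.56%. Matches overlapped in 0 of the 5 printed windows, and a match of letters shows no binding. Only these fixed spellings were searched, and an element spelled otherwise is not marked. A window without a mark, such as that of H2-K1 for the interferon element, is thus not shown to lack the element.

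Over the series, 7868 to 11808 probes were detected per array, that is, had a deposited detection p under 0.01. Car6 itself was detected on 3 of 3 wild-type submandibular arrays, with signals of 114, 106 and 158, on 0 of 3 Car6-/- submandibular arrays, with 63.6, 55.1 and 51.0, and on 0 of the 12 arrays of the other tissues. The arrays labelled duodenum carried intestinal genes, for example Sis, the sucrase-isomaltase of enterocytes, with 1702, 8140.2 and 9611 in wild type and 10429, 17241 and 24022 in Car6-/- mice. They also carried genes of gastric glands, and unevenly. Muc5ac, the mucin of the gastric surface, gave 10849, 9387 and 9182 on wild-type replicates 1 to 3 and 5170.1, 2133 and 82.4 on the Car6-/- replicates, and Gkn1, a gastrokine, gave 14127, 16380.00 and 16439.7 against 10421, 8076 and 205. Atp4a and Atp4b, the proton pump of parietal cells, were detected on 1 of the 6 duodenal arrays, wild-type replicate 1. Each duodenal array was also left out in turn, and the results without wild-type replicate 1 and without Car6-/- replicate 3 are given below. Signals are given as deposited, before normalization, and so also carry differences between whole arrays. Wild-type duodenal replicate 1 had the lowest median signal of the 6 duodenal arrays, 75.5 against 78.3 to 87.1. Not all its values were low, as Muc5ac shows. Log2 differences are between normalized values, and calls of overlap are on these.

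Of the 63 member probes, 40 passed the filter on dim probes, a detection p under 0.01 on at least 3 of the 6 arrays of a tissue, in at least 1 tissue: 31 in the submandibular gland, 32 in the stomach and 40 in the duodenum. The 8 kept in the duodenum alone read H2-Bl, H2-K1, H2-Q2, H2-T10, H2-Oa, Nlrc5, Psmb8 and Ciita. A total of 19 probes were detected on no array, with signals of 44.1 to 92.2, and 26 on all 18 arrays. Probes of the H2-M10 family, known from vomeronasal neurons, were near background: 7 of 8 were detected on no array. H2-Ea, a class II alpha chain for which C57BL/6 mice are known to lack a working gene, gave 75.5, 70.4 and 55.2 in wild-type duodenum and was detected on no array. Both Erap1 probes, for the enzyme that trims peptides in the endoplasmic reticulum, and 1 of 3 B2m probes (ILMN_2670561) were also detected on no array. Class I heavy chain genes resemble each other closely, and whether a probe reads a single H2-K, H2-D, H2-Q or H2-T gene cannot be told from the files.

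**Figure D1:**
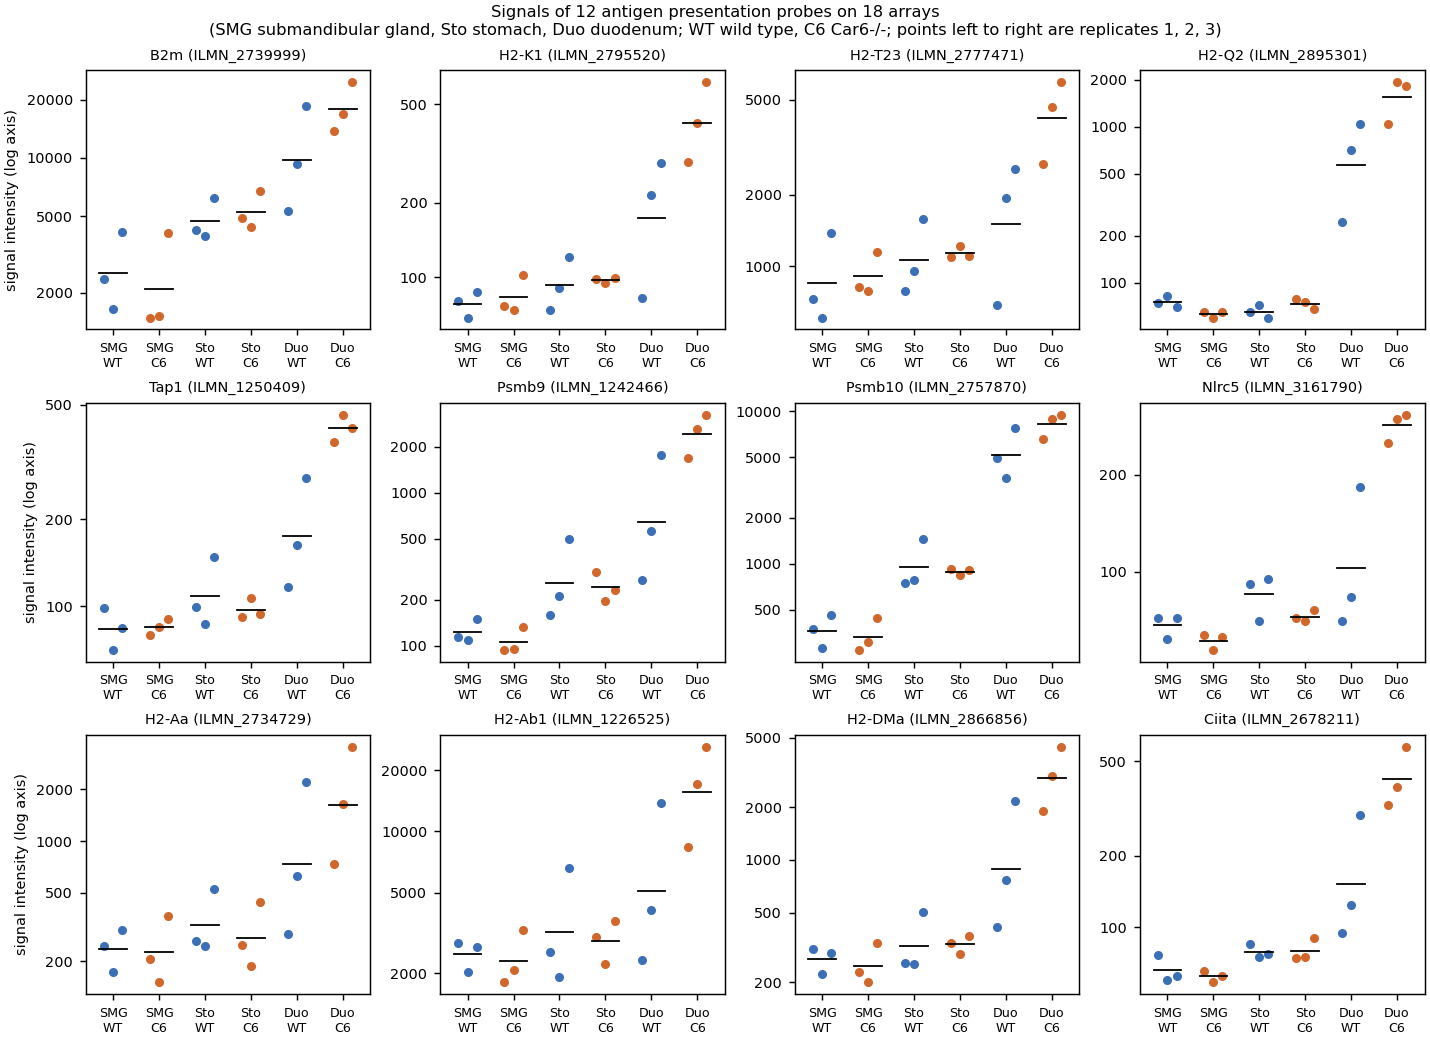
Deposited signal intensity, on a log axis, of 12 member probes on each of the 18 arrays, in 6 groups of 3; points from left to right within a group are replicates 1, 2 and 3, and the bar is their geometric mean. In the duodenum wild-type replicate 1 is the lowest of the wild-type arrays for 11 of the 12 probes and wild-type replicate 3 the highest for all 12. For most of the probes wild-type replicate 3 reaches into or close to the range of the Car6-/- points. It stays below them for Tap1, at 279 against a lowest Car6-/- signal of 371, and for Nlrc5, at 184 against 252.

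The comparison of genotypes in the duodenum asked whether the loss of Car6 goes with a difference in antigen presentation transcripts there. Most member probes had a higher mean in Car6-/- than in wild-type duodenum, with median log2 differences of 0.67 for 27 class I probes and 1.28 for 12 class II probes, but wild-type replicate 3 lay close to the Car6-/- arrays and no member passed the threshold. Of 40 members tested, 38 had a higher mean in Car6-/- mice, with a median log2 difference of 0.92 against 0.03 for all 11022 probes tested. By limma with Benjamini-Hochberg adjustment over these probes, 0 of 40 passed an adjusted p under 0.05 (0.00907% of all probes did), and the smallest adjusted p among members was 0.135. At an unadjusted p under 0.05, 24 of 40 were higher and 0 lower, against 11.8% of all probes higher and 10.9% lower. Genotypes were separate (no value of one within the range of the other), with Car6-/- higher, for 14 of 40 members, against 16.3% of all probes, and with Car6-/- lower for 1, against 13.2%.

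Class I heavy chains had a median difference of 0.52 over 13 probes, 12 of them higher. H2-K1 (ILMN_2795520), a classical heavy chain that presents to CD8 T cells, gave signals of 82.7, 216 and 291 in wild type and 292, 421 and 615 in Car6-/- mice. It was detected on 2 of 3 wild-type and 3 of 3 Car6-/- arrays. The lowest Car6-/- value was just above the highest wild-type value, and the difference was 1.48 (SE 0.56) on the log2 scale (limma adjusted p = 0.189). A second H2-K1 probe, ILMN_2634603, stayed close to background, with 68.4, 81.9 and 97.5 and 87.4, 106 and 123, and was not kept. H2-D1, the other classical heavy chain of this strain, gave 112, 202 and 226 in wild type and 149, 311 and 372 in Car6-/- mice. These values overlap, and its difference was 0.45 (SE 0.34, limma adjusted p = 0.467). H2-T23, which encodes the nonclassical molecule Qa-1 that NK cells read, gave 689, 1926 and 2556 against 2699, 4683 and 5930.2 with probe ILMN_2777471, with no overlap. Its difference was 1.16 (SE 0.30, limma adjusted p = 0.135), and the other H2-T23 probe overlapped, with 0.78 (SE 0.31). H2-Bl gave 120.01, 372 and 379 against 475, 779 and 937, a difference of 1.37 (SE 0.39). On the low side stood H2-M10.1 (ILMN_2730154), at -0.19 (SE 0.12) with signals of 87.3, 104 and 98.7 against 88.3, 99.97 and 105, which overlap before normalization and not after it, and it was detected on 3 of the 6 arrays.

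The helpers of class I were all on the high side, 14 of 14 kept probes with a median of 0.74. B2m (ILMN_2739999) had signals of 5332, 9261 and 18606 in wild type and 13870.3, 16977 and 24668 in Car6-/- mice. Wild-type replicate 3 exceeded 2 of the 3 Car6-/- arrays, and the difference was 0.64 (SE 0.28, limma adjusted p = 0.229), beside 0.67 (SE 0.30) for the other detected B2m probe. Tap1, a subunit of the peptide transporter, gave 117, 163 and 279 against 371, 463 and 414. The groups were apart for Tap1, at 1.26 (SE 0.31, limma adjusted p = 0.135), while its partner Tap2, with signals of 326, 854 and 1386 against 1436, 1700.2 and 1817, overlapped after normalization and had 0.88 (SE 0.34). Tapbp, the gene of tapasin, had 0.67 (SE 0.22) with one probe and 0.19 (SE 0.31) with the other, so the probes gave unlike sizes.

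Among the proteolytic subunits that interferon exchanges into the proteasome, Psmb9 gave 269, 562 and 1764 in wild type and 1691, 2631 and 3250.2 in Car6-/- mice. By signal wild-type replicate 3 lay above Car6-/- replicate 1, and after normalization the groups were apart, at 1.67 (SE 0.51, limma adjusted p = 0.15). Psmb8 had 1.28 (SE 0.41), while Psmb10 had 0.38 (SE 0.29) and 0.17 (SE 0.31) with its 2 probes and overlapped. The standard subunits that these replace stood elsewhere: Psmb5, the counterpart of Psmb8, was at 0.19, Psmb6, the counterpart of Psmb9, at -0.08, and the 3 probes of Psmb7, the counterpart of Psmb10, at -0.11, 0.05 and 0.37. The 19 kept probes of standard proteasome genes had a median of 0.09, with 0 past the threshold and 4 apart on the high side, against 16.3% of all probes. Psme1, a subunit of the interferon-inducible activator that caps the proteasome, gave 775, 1641 and 2350.2 against 2740.2, 3842 and 4226. With no overlap, its probes had 0.97 (SE 0.23) and 0.81 (SE 0.23, limma adjusted p = 0.135 and 0.146), and its partner Psme2 had 0.48 (SE 0.17). Nlrc5 gave 70.4, 83.6 and 184 against 252, 298 and 308. It was detected on 1 of 3 wild-type and 3 of 3 Car6-/- arrays, and its 2.11 (SE 0.55, limma adjusted p = 0.136) was 1.37 without background correction.

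All kept class II probes lay on the high side: 12 of 12 were higher in Car6-/- duodenum. Of these 12, 9 had an unadjusted p under 0.05, against 11.8% of all probes. For 2 the genotypes did not overlap, a share near the 16.3% of all probes. The beta chain gene H2-Ab1 was read by 4 probes. With ILMN_1226525 it gave 2325, 4116 and 13850.3 in wild type and 8371, 17169.5 and 26071 in Car6-/- mice. Wild-type replicate 3 lay between the Car6-/- arrays, and the 4 probes had differences of 1.37, 1.37, 1.33 and 1.28 (SE 0.44 to 0.48). The alpha chain gene H2-Aa gave 289, 624 and 2197 against 734, 1652 and 3531, interleaved between the genotypes, at 0.84 (SE 0.67, limma adjusted p = 0.487). H2-Eb1 had 881, 1814 and 4602 against 3629.6, 5679.7 and 8498 and a difference of 1.16 (SE 0.42). Cd74, the invariant chain that guards the class II groove, gave 2081, 4421 and 12440.2 against 8527, 15925 and 22504, again with wild-type replicate 3 inside the Car6-/- range, and its 2 probes had 1.29 (SE 0.45) and 1.17 (SE 0.39).

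The class II peptide exchange factor is a dimer of H2-DMa and H2-DMb. H2-DMa gave 411, 771 and 2185 in wild type and 1916, 3032 and 4446 in Car6-/- mice, apart after normalization but not before, with a difference of 1.43 (SE 0.45, limma adjusted p = 0.152). H2-DMb1 had 1.19 (SE 0.53) and overlapped. H2-Oa, of the inhibitor of that exchange, had 0.29 (SE 0.19) and was detected on 3 of the 6 arrays. Ciita gave 94.8, 124 and 298 against 328, 392 and 577, with no overlap, at 1.66 (SE 0.48, limma adjusted p = 0.146). H2-Ke6, which lies in the MHC but encodes a steroid dehydrogenase and presents nothing, was at -0.20 (SE 0.20).

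**Figure D2:**
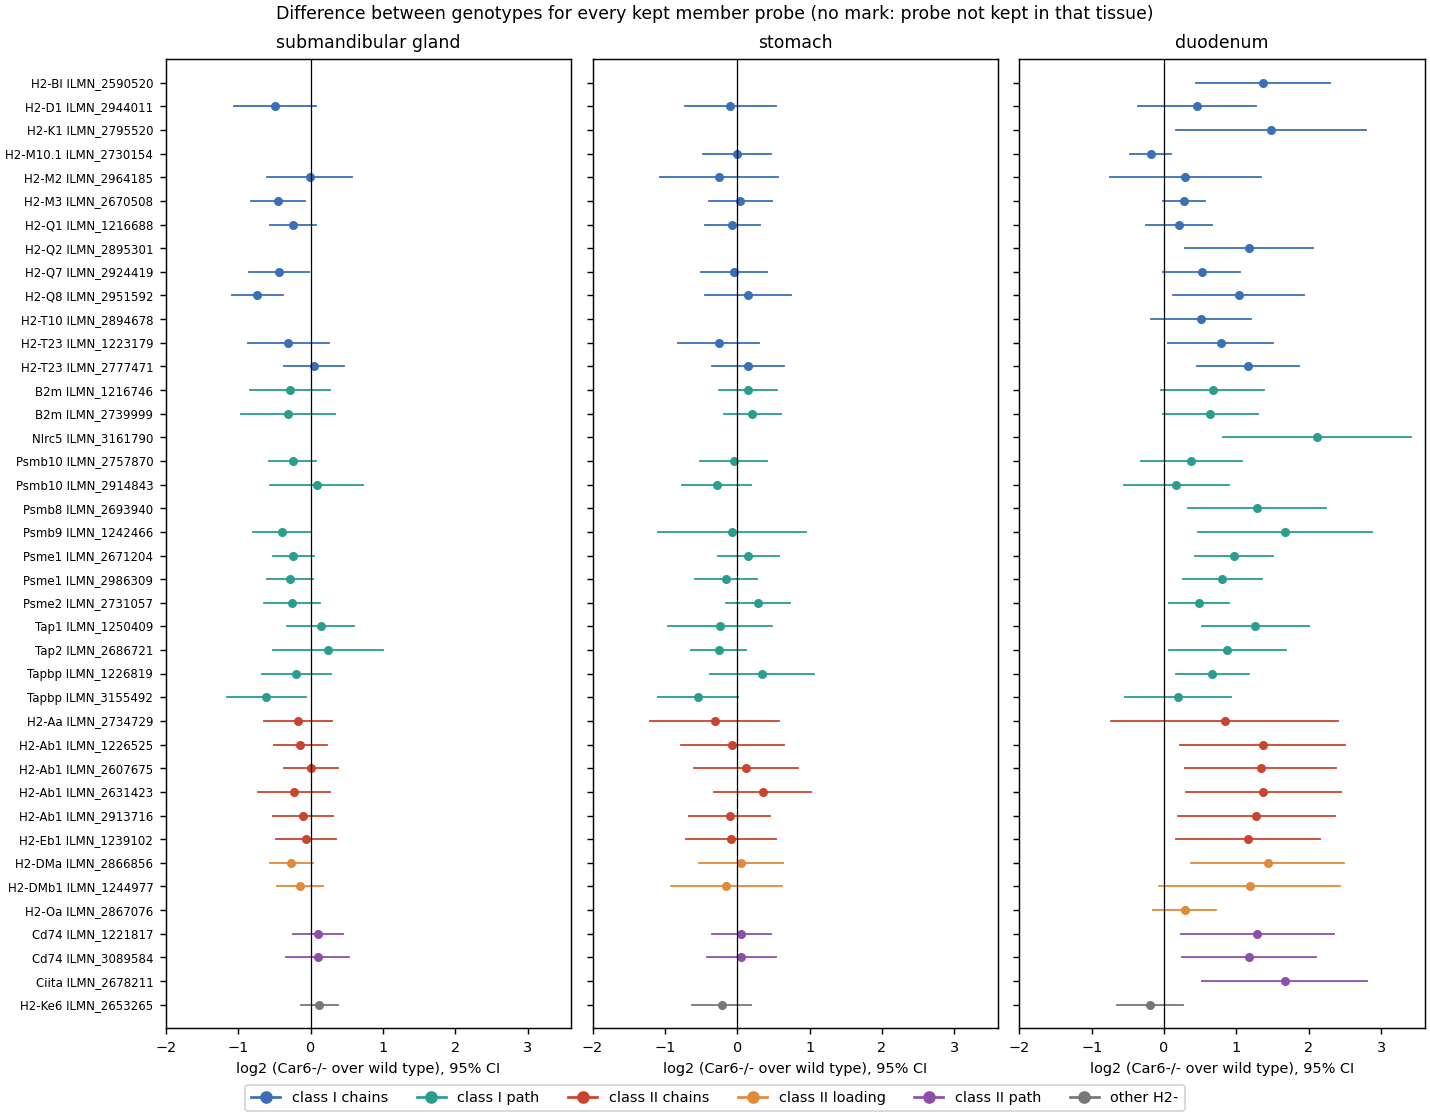
Log2 difference of Car6-/- over wild type for each kept member probe in the 3 tissues, from 3 arrays against 3; points are limma estimates, lines are 95% confidence intervals, and colours are the classes. In the duodenum 38 of 40 points lie above 0, in the submandibular gland 24 of 31 lie below 0, and in the stomach they lie on either side of 0.

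The size of these differences varied with the arrays included. Without wild-type replicate 3, 9 of 37 members passed, all higher in Car6-/- mice (0.525% of all probes passed on the high side), and the member median was 1.51. These were 5 probes of class I (H2-Q8, Nlrc5, Psmb8, Psmb9 and Tap1) and 4 of class II (H2-Eb1, H2-DMa, Cd74 and Ciita). Without wild-type replicate 1 the median was 0.67 and 0 passed. Without Car6-/- replicate 3, the array with the least gastric signal, the median was 0.96 and 35 of 37 members were higher. With wild-type replicate 1 and Car6-/- replicate 3 both left out, an alternative added after seeing the data, it was 0.68, with 34 of 37 higher and 0 past the threshold. With array weights 10 members passed on the high side (4.53% of all probes), and with all 18 arrays in the fit 15 did (2.54%).

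Other gene lists were measured on the same arrays. The mean log2 value of the class I members was 8.33, 8.50 and 9.28 on wild-type replicates 1 to 3 and 9.34, 9.56 and 9.57 on the Car6-/- replicates, and that of the class II members was 9.72, 9.85 and 11.36 against 11.10, 11.58 and 11.85. Interferon response genes had 6.68, 6.62 and 8.04 against 8.83, 9.06 and 8.40, with 21 of 21 kept probes higher, 0 past the threshold and 19 apart on the high side, against 16.3% of all probes. Of 17 kept probes of interferon gamma signalling and MHC transcription, 14 were higher and 0 passed, with a median of 0.33. The 5 probes of Irf1, a transcription factor that interferon induces, had differences of 0.82 to 1.28, and with ILMN_2649068 its signals were 142, 367 and 455 against 516, 875 and 1004. Irf8, a related factor, had 1.07, and the class II promoter factors Rfxank and Rfxap had -0.26 and -0.014. Endoplasmic reticulum loading genes had 3 of 4 probes higher, with the 2 of Tapbpl, a relative of tapasin, at 0.73 and 0.83. Endosomal proteases and their partners had a median of -0.01 over 5 probes.

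Markers of cells that present antigen did not all follow. Macrophage and dendritic cell genes had 7.48, 7.53 and 7.99 in wild type and 7.42, 7.82 and 8.19 in Car6-/- mice, a median difference of 0.08 over 12 probes, 8 of them higher. The dendritic marker Itgax was detected on 0 of 6 arrays. Genes of all leukocytes had 8.05, 8.10 and 8.73 against 8.58, 8.61 and 9.02, a median of 0.65 with 7 of 9 kept probes higher, 1 apart on either side and 2 higher at an unadjusted p under 0.05; both probes of Ptprc, the pan-leukocyte surface marker, were detected on 0 of 6 arrays. B and plasma cell genes had a median of 0.91 over 3 probes, with 3 of 3 higher and 2 apart on the high side. T and NK cell genes had 6.94, 7.08 and 8.47 against 7.53, 7.97 and 9.40 and a median of 0.87, with 7 of 7 higher and 0 apart. Enterocyte genes had 10.40, 11.39 and 11.66 against 11.76, 12.17 and 12.50, a median of 1.02 with 6 of 6 higher and 4 apart. Stomach gland genes had 13.94, 13.92 and 13.74 against 13.31, 12.59 and 7.98, a median of -2.94 with 7 of 7 lower and 6 apart, and without Car6-/- replicate 3 the 2 remaining Car6-/- arrays stayed below the 3 wild-type arrays. Smooth muscle genes had a median of -0.56 with 9 of 9 lower. In none of these lists did a probe pass the threshold. Of all probes tested in the duodenum, 16.3% were apart on the high side and 13.2% on the low side. The part of T cells, of the intestinal and gastric tissue in each sample and of interferon in the member differences was not tested, and in RNA of whole tissue a change in the number of cells and a change of RNA per cell cannot be told apart.

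**Figure D3:**
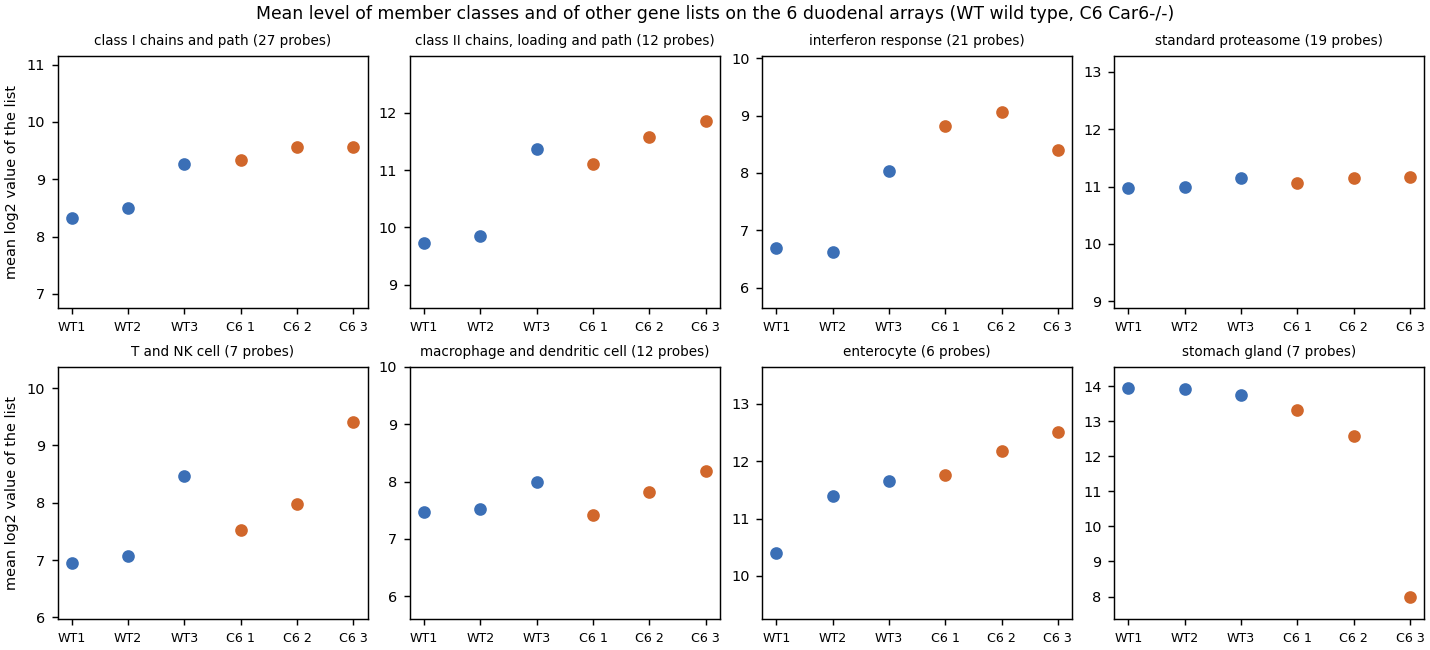
Mean log2 normalized value of 2 member classes and 6 other gene lists on the 6 duodenal arrays; each point is an array, with wild type on the left and Car6-/- on the right, and the span of the vertical axis is wider for stomach glands. Wild-type replicate 3 lies near the Car6-/- arrays for class I and class II members, and Car6-/- replicate 3 has the lowest stomach gland value at 7.98.

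The same comparison in the submandibular gland gave small differences, mostly with lower values in Car6-/- mice. Of 31 members tested, 24 were lower and 7 higher, with a median of -0.22 against 0.01 for all 9012 probes tested. By limma 0 of 31 passed the threshold (0.111% of all probes did), and 4 were lower and 0 higher at an unadjusted p under 0.05, against 4.16% of all probes lower and 5.56% higher. Genotypes were separate, with Car6-/- lower, for 7 of 31, against 6.64% of all probes, and with Car6-/- higher for 1, H2-Ke6, against 9.08%. Class I heavy chains had a median of -0.37 over 8 probes and class II chains one of -0.12 over 6 probes. H2-Q8, a class I gene of the Q region, gave 128, 98.9 and 128 in wild type and 84.7, 75.6 and 113 in Car6-/- glands. Wild-type replicate 2 lay below Car6-/- replicate 3, and after normalization the groups were apart, at -0.73 (SE 0.15, limma adjusted p = 0.286). With array weights H2-Q8 was the 1 member that passed (limma adjusted p = 0.0371; 0.311% of all probes passed). H2-M3, which presents formylated peptides, had -0.45 (SE 0.16), Tapbp (ILMN_3155492) -0.61 (SE 0.24), H2-Q7 -0.44 (SE 0.18) and Psmb9 -0.40 (SE 0.18).

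The 7 probes on the high side in the gland were H2-Ke6 at 0.12 (SE 0.11), Tap2 at 0.24 (SE 0.33), Tap1 at 0.14 (SE 0.20), the Cd74 probes at 0.10 (SE 0.15) and 0.10 (SE 0.19), Psmb10 (ILMN_2914843) at 0.09 (SE 0.28) and H2-T23 (ILMN_2777471) at 0.05 (SE 0.18). B2m (ILMN_2739999) gave 2356, 1655 and 4159 against 1489.9, 1521 and 4076, with replicate 3 highest in either genotype, and had -0.31 (SE 0.29). H2-D1 had -0.49 (SE 0.25). H2-Ab1 (ILMN_1226525) gave 2830.5, 2025 and 2688 against 1811, 2081 and 3266 and overlapped. Its probes lay between -0.22 and -0.00082, and H2-Aa had -0.18 (SE 0.21), H2-Eb1 -0.06 (SE 0.18), H2-DMa -0.27 (SE 0.13) and H2-DMb1 -0.15 (SE 0.14). Interferon response probes were lower in 14 of 15 cases, with a median of -0.53, and macrophage and dendritic cell probes in 11 of 11, with a median of -0.38. T and NK cell probes were lower in 3 of 3 cases, with a median of -0.60, and those of all leukocytes in 5 of 7, with a median of -0.38. Genes of the gland itself were higher in 11 of 12 cases, with a median of 0.38; their mean log2 value was 10.34, 11.52 and 11.77 on the wild-type arrays, replicate 1 standing below the others, and 11.77, 11.76 and 11.48 on the Car6-/- arrays. In these lists 0 probes passed, and their part in the member values was not tested. Without wild-type replicate 1 the member median was -0.21, with 22 of 29 lower. Without Car6-/- replicate 1 the member median was -0.11, with 20 of 31 lower.

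In the stomach the member values lay on either side of 0. Of 32 tested, 13 were higher and 19 lower in Car6-/- mice, with a median of -0.06 against 0.0038 for all 11070 probes. By limma 0 of 32 passed (0 of all probes, 0%), and 0 of 32 had an unadjusted p under 0.05, against 1.51% of all probes higher and 1.45% lower. Genotypes were separate for 1 member, Tap2, with 299.7, 292 and 377 in wild type and 279.9, 283 and 271 in Car6-/- stomach and a difference of -0.26 (SE 0.16), against 5.14% of all probes separate with Car6-/- lower and 3.9% with Car6-/- higher. The smallest p on the low side belonged to Tapbp (ILMN_3155492) at -0.54 (SE 0.24), Tap2, Psmb10 (ILMN_2914843) at -0.29 (SE 0.20), H2-Ke6 at -0.21 (SE 0.17) and H2-T23 (ILMN_1223179) at -0.26 (SE 0.24). On the high side these were Psme2 at 0.28 (SE 0.19), B2m (ILMN_2739999) at 0.21 (SE 0.17), H2-Ab1 (ILMN_2631423) at 0.35 (SE 0.29), Tapbp (ILMN_1226819) at 0.34 (SE 0.31) and Psme1 (ILMN_2671204) at 0.15 (SE 0.18). The 2 Tapbp probes thus differed in sign. The confidence interval of the B2m difference ran from -0.18 to 0.60, and that of H2-Ab1 (ILMN_1226525), whose signals were 2542, 1919.6 and 6592 against 3033, 2213 and 3608, from -0.78 to 0.64. The median was 0.15 with array weights, 0.10 without wild-type replicate 3, 0.04 without Car6-/- replicate 2, -0.14 without wild-type replicate 2 and -0.10 without Car6-/- replicate 1.

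An interaction term in a fit of all 18 arrays, with 12659 probes and 40 members, asked whether the genotype difference was unequal between tissues. This fit took the arrays as independent, so its p-values take no account of tissues that may come from the same mouse. For duodenum minus submandibular gland, 38 of 40 members were positive, with a median of 1.05, class I at 0.96 and class II at 1.33. By limma 0 of 40 passed (0.174% of all probes did), the smallest adjusted p being 0.0643 for Psme1 at 1.20, and 29 of 40 were positive at an unadjusted p under 0.05, against 6.57% of all probes. For duodenum minus stomach, which shares the duodenal arrays, the median was 0.98 with 39 of 40 positive. Here 0 passed (0.0079% of all probes did), the smallest adjusted p by limma was 0.135 for Nlrc5 at 2.29, and 19 were positive at an unadjusted p under 0.05, against 6.1% of all probes. Of the 40 members, 8 passed the filter per tissue in the duodenum alone, Nlrc5 among them. These 8 were mostly undetected in the other tissues, so their values in both contrasts largely repeat the duodenal difference. Without wild-type duodenal replicate 3, 19 members passed in the first of these contrasts (1.31% of all probes on the positive side) and 16 in the second (1.02%), and without Car6-/- duodenal replicate 1, 2 passed in the first. Without wild-type duodenal replicate 1 or Car6-/- duodenal replicate 3, 0 passed in either. For stomach minus submandibular gland the median was 0.10, 0 passed (0.0632% of all probes did) and 2 were positive at an unadjusted p under 0.05, against 1.94% of all probes.

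In wild-type mice many members had a higher level in the duodenum than in the stomach. Against the stomach, 26 of 40 members were higher in the duodenum by limma in the fit of 18 arrays (12.5% of all probes were) and 1 lower, H2-Ke6 at -0.78 (15.9% of all probes were), with a median difference of 1.08 on the log2 scale. Without duodenal replicate 3, 17 were higher (10% of all probes), and without duodenal replicate 1, the array with parietal cell genes, 28 were (12.4%). Of the 40 members, 8 passed the filter per tissue in the duodenum alone, among them H2-Bl, H2-Q2, Ciita and Psmb8. For these 8 a higher level in the duodenum than in the other tissues is partly built in by the filter. With no filter on dim probes, 22 members were higher (5.83% of all probes) and 1 lower (7.39%). Psmb10 (ILMN_2757870) gave 4931, 3653 and 7799 in wild-type duodenum, 752, 783 and 1444 in stomach and 371, 281 and 457 in submandibular gland. Its lowest duodenal signal was above the highest of the other tissues, and it was 2.67 higher than in stomach (limma adjusted p = 2.53e-07) and 2.61 higher than in the gland on the log2 scale (limma adjusted p = 1.03e-07). H2-Bl was detected on 3 of 3 wild-type duodenal arrays and on no array of the other tissues, where wild-type signals were 68.7, 64.4 and 62.0 in stomach and 61.5, 61.0 and 56.9 in the gland. It was at least 2.66-fold higher than in stomach and at least 1.92-fold higher than in the gland, taking the lowest detected signal of each array as the floor. H2-Q2 (ILMN_2895301), named after its values were seen, was at least 5.93-fold higher than in stomach, with 247, 708 and 1038 against 64.7, 72.7 and 59.9. Ciita was undetected on wild-type stomach and submandibular arrays and at least 1.6-fold and at least 1.16-fold higher in the duodenum, and Psmb8 at least 1.91-fold higher than in stomach.

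B2m (ILMN_2739999) gave 5332, 9261 and 18606 in wild-type duodenum, 4248, 3943 and 6228 in stomach and 2356, 1655 and 4159 in submandibular gland. The duodenum overlapped the stomach by signal, and B2m was 1.12 higher there than in stomach (limma adjusted p = 0.00404) and 0.77 higher than in the gland (limma adjusted p = 0.0207). The difference between stomach and gland, -0.35, did not pass (limma adjusted p = 0.284). Of the class II chains, H2-Aa was 1.48 higher in duodenum than in stomach (limma adjusted p = 0.0443), 2 of 4 H2-Ab1 probes passed at 1.61 and 1.11, 2 did not at 0.81 and 0.74, and H2-Eb1 at 0.59 did not pass (limma adjusted p = 0.219). H2-DMa was 1.81 higher (limma adjusted p = 0.00078) and H2-DMb1 1.41 (limma adjusted p = 0.016). The duodenal arrays hold gastric signal, as given above, and its part in these levels was not tested.

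The order of the submandibular gland depended on the scaling. After quantile normalization of all 18 arrays, 18 of 40 members were lower and 0 higher in wild-type stomach than in the gland (24.8% and 25.2% of all probes), with a median of -0.75. Median scaling put the median of all probes at 0.77, with 58% of probes higher in stomach and 5.62% lower, and then 6 members were higher and 2 lower with a median of -0.08. Relative to the median of all probes the member median was -0.75 under the first scaling and -0.85 under the second. Deposited signals of H2-Ab1 (ILMN_1226525) overlapped, with 2542, 1919.6 and 6592 in wild-type stomach and 2830.5, 2025 and 2688 in the gland, while those of Psme1 (ILMN_2986309) were higher in stomach, with 1979.7, 1913 and 3048 against 859, 671 and 1161, as were those of Psmb10 given above. Against the gland, the duodenum had 11 members higher and 5 lower under quantile normalization (25.4% and 28.7% of all probes) and 19 higher and 0 lower under median scaling (48.5% and 6.86%), which put the median of all probes at 0.60. Without wild-type duodenal replicate 3, 5 were higher under quantile normalization (22.6% of all probes) and 9 lower (24.9%), without duodenal replicate 1, 13 were higher (24.8%), and without submandibular replicate 2, 7 were higher (22.1%). Psmb10, Psmb9 and Tap2 were among those higher under both scalings. For duodenum against stomach, 26 members were higher under the first scaling and 15 under the second (8.68% of all probes higher and 16.1% lower), and 1 was lower under either.

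**Figure D4:**
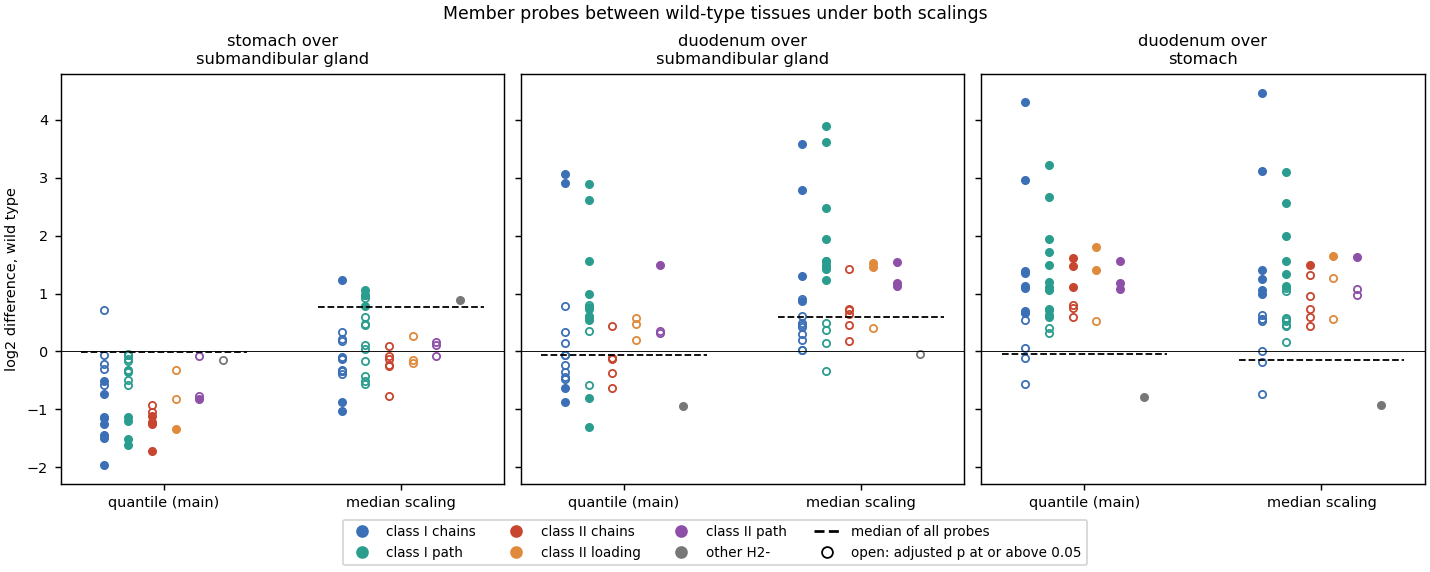
Log2 difference of each member probe between pairs of wild-type tissues (3 arrays against 3, from the fit of 18 arrays) under quantile normalization and under median scaling; filled points passed an adjusted p under 0.05, colours are the classes, and the dashed line is the median of all probes. The members lie mostly above the dashed line for duodenum over stomach under either scaling, and below it for stomach over submandibular gland, where the zero line cuts through them only after median scaling.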

How the data were processed

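The authors deposited a table of signal intensity and detection p-value per probe and array, per the file headers, and log2 values per array. The deposited log2 values equalled a quantile normalization of each tissue's 6 arrays without background subtraction (largest difference of sorted values 0.00500). No software or version is named in the labels or file headers. Intensities were background-corrected and quantile-normalized per tissue by the neqc function (limma 3.58.1, R 4.3.3; offset 16, negative controls inferred from the detection p-values). Probes with a detection p under 0.01 on at least 3 of 6 arrays (3 of 18 in the joint fit, which took the arrays as independent) were tested with lmFit and eBayes, adjusted after Benjamini and Hochberg over all of them at 0.05. A fitted log2 value of a probe near background depends on that correction. The number of arrays limits the precision.

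Members and lists were chosen with earlier results of these data known. Named were the 5 members with the smallest p in each direction per genotype comparison, the main classical genes and every listed gene without the H2- prefix. Same-numbered wild-type and Car6-/- submandibular arrays deviated together (correlations of 0.257, 0.474 and 0.219), a pairing read from the data. Alternatives were other normalizations and scalings, no filter, the deposited log2 values, array weights, a replicate block, 1 probe per gene, all 18 arrays, and arrays left out. Fits were tested on simulated data.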

Additional observations from a re-analysis of the deposited data

How the results depend on the processing

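With 3 arrays a group, single arrays and the model decided how many members passed. In the duodenum the count went from 0 to 15 with a replicate block (10.7% of all probes), 10 with array weights, 15 with all 18 arrays in the fit and 4 without both replicate 3 arrays, and ran from 0 to 9 with each array left out in turn. It stayed at 0 under the other alternatives run. Same-numbered duodenal arrays correlated at 0.484, 0.0848 and 0.439 and stomach arrays at -0.31, -0.22 and -0.26. The labels do not say what same-numbered arrays share, so whether a replicate block is apt cannot be told. Probes past the threshold over the whole array numbered 1 in the duodenum, but 5 without background correction, 5 with the deposited log2 values, 2 with median scaling, 2 without the filter, 1184 with the replicate block, 1020 with array weights, 695 with 18 arrays, 28 without both replicate 3 arrays, 0 without the 2 arrays of wild type 1 and Car6-/- 3, and 0 to 67 with single arrays left out. In the submandibular gland 10 became 4 with median scaling, 28 with array weights, where 1 member passed, 34 with 18 arrays and 0 to 6 with single arrays left out. The replicate block changed no call of a member there or in the stomach, where 1 probe passed with 18 arrays in the fit.

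The class I median of the duodenum was 0.28 without the filter on dim probes, 0.92 without both replicate 3 arrays and 0.51 to 1.03 with single arrays left out, and the class II median 0.98 to 1.83. The submandibular medians were -0.039 for class I without the filter, and -0.33 to -0.17 for class I and -0.23 to -0.01 for class II with single arrays left out. The stomach medians ran from -0.11 to 0.06 and from -0.23 to 0.12, and class II was at 0.32 with array weights.

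Between wild-type tissues, median scaling changed the members past the threshold from 18 to 8 for stomach against gland (6 higher, 2 lower), to 19 higher and 0 lower for duodenum against gland, and from 27 to 16 for duodenum against stomach (15 higher). Directions that reversed under it, from lower to higher, were, in stomach against gland, H2-M3 (0.34), H2-Q1 (0.21), Psmb10 (1.06 and 0.79), Psme1 (0.98 and 0.98), Cd74 (0.11) and H2-Ke6 (0.89), and, in duodenum against gland, H2-M3 (0.87), H2-Q1 (0.027), H2-Q8 (0.024) and Psme2 (0.15). With single arrays left out the counts ran from 15 to 21 lower for stomach against gland, 12 to 17 in all, 5 to 13 higher and 4 to 9 lower for duodenum against gland, and 18 to 30 in all with 17 to 29 higher for duodenum against stomach. In the main fit 24.8% of all probes were lower for stomach against gland. For duodenum against gland 25.4% were higher and 28.7% lower, and for duodenum against stomach 12.5% were higher and 15.9% lower. The difference of genotype effects between duodenum and gland had 1 member with the replicate block and 0 to 19 with single arrays left out, and that between duodenum and stomach 0 to 16. Of all probes, 0.174% passed in the former and 0.0079% in the latter in the main fit. Where no cause is named, the cause was not tested.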
